A study of Mus musculus with 12 samples.

Results

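The 10 genes Fos, Fosb, Fosl2, Jun, Junb, Egr1, Egr3, Arc, Npas4 and Nr4a1 were followed through 12 mouse RNA-seq libraries of rods and whole retina. They were taken by gene symbol from a table of 56748 genes, and each symbol matched 1 row. All 10 passed the filter on low values in every comparison. The libraries formed 4 groups of 3, which are the rods and the retina of control mice and of mice with a rod knockout of Pkm2. Control mice carried RiboTag, i75-Rod-Cre and Pkm2fl/+ (labelled Pkm2_Rodhet and titled wt), so that 1 of their Pkm2 alleles was floxed too. The knockout mice carried RiboTag, i75-Rod-Cre and Pkm2fl/fl (labelled Pkm2_Rodko, called Rodko here). In both genotypes the rhodopsin promoter drove Cre, so a ribosomal protein was tagged in rods alone, and the rod libraries (Rod-TRAP) hold the mRNA on those tagged ribosomes. The retina libraries hold RNA of the lysate before the pull-down. Every tissue was perfused with cycloheximide, a drug that stalls ribosomes, and then frozen. The mice were 2 months old by the methods but 2 weeks old by the description filed with the data. The labels do not say that the 3 libraries of a group came from separate mice, so the p-values measure the spread between these libraries, which may be technical.

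Immediate early genes are transcribed within minutes of a stimulus to the cell, without the need for new protein. Their promoters are held ready by factors such as SRF and CREB, which kinases activate when calcium or growth factor signals arrive, and many of their mRNAs decay quickly. In neurons they are widely used as a record of recent activity, and in the retina light, injury and handling of the tissue are all known to induce them.

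The genes fall into groups by what their products do. FOS, FOSB and FOSL2 pair with JUN or JUNB to form the transcription factor AP-1, EGR1 and EGR3 are zinc finger factors, NR4A1 is an orphan nuclear receptor, NPAS4 is an activity-dependent factor of neurons, and ARC is an effector at synapses. RefSeq promoter windows were available for 7 of the 10 (Fos, Fosb, Fosl2, Jun, Junb, Npas4 and Nr4a1). The 250 bases before the start of Fos, Fosb, Junb, Npas4 and Nr4a1 are shown because these are the windows that held TGACG, the first bases of the cAMP response element TGACGTCA that CREB binds. Coordinates are those of GRCm38.p6, and each sequence is written 5′ to 3′ on the strand of the gene. Capitals mark TGACG or its reverse complement CGTCA, and also GCGNGGGCG, a motif bound by EGR factors, in Fosb and its reverse complement in Nr4a1.
Fos, chr12:85473640-85473889, plus strand: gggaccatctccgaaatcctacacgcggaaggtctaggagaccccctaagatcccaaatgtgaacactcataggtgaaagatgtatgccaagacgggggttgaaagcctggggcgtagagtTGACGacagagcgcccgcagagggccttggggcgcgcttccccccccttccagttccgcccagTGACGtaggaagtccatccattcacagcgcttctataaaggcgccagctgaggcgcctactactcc
Fosb, chr7:19310046-19310295, minus strand: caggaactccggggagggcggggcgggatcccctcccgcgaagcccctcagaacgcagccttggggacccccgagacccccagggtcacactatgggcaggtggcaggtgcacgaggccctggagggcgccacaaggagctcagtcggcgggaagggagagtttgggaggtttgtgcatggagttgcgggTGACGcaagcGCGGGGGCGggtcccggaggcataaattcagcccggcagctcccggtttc
Junb, chr8:84978749-84978998, minus strand: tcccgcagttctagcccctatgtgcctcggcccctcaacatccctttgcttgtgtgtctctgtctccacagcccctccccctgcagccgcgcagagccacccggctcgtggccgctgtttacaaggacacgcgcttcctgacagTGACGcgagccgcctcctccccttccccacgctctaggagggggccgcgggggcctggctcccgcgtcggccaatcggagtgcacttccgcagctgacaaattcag
Npas4, chr19:4989972-4990221, minus strand: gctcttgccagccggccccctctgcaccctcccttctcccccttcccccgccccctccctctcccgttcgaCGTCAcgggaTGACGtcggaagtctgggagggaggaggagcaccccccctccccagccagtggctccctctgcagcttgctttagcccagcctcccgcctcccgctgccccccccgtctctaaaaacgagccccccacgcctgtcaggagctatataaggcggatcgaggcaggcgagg
Nr4a1, chr15:101266596-101266845, plus strand: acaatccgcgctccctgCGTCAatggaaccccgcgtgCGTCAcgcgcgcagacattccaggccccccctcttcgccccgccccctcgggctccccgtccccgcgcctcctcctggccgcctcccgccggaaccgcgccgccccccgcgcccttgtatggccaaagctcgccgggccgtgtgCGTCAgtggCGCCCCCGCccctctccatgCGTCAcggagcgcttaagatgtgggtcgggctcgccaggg

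TGACG was found on either strand in 5 of the 7 windows, with 2 matches in Fos, 1 in Fosb, 1 in Junb, 2 in Npas4 and 4 in Nr4a1. Of 32851 windows of the same length, 17.8% held it. In Fos the matches began 129 and 66 bases before the start, and in Nr4a1 the nearest began 40 bases before it. The full element TGACGTCA, which contains TGACG, was in none of the 7 (1.55% of all windows). The AP-1 site TGANTCA was in none (6.75%), and the CArG box of SRF was in none (1.47%). Only exact matches within these windows were counted, so sites further upstream or with other letters were not seen. GCGNGGGCG was in Fosb, Fosl2 and Nr4a1 (4.7%). TGACG was added to the search after the windows had been read, and a match is a description of the letters and not of binding.

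The mRNA ends were searched for ATTTA, the core of the AU-rich elements that speed the decay of many early transcripts. ATTTA was in the 3′ UTR of 9 of the 10 genes and absent from that of Arc, and 81.2% of genes with a 3′ UTR in the same range of length held it. The longer TTATTTATT was in Fos and Fosl2, against 9.18% of those genes. The site in Fos, with the element in capitals, reads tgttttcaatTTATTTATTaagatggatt.

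The libraries held 13458890 to 22790074 reads counted on genes. Values of rods and retina are given on 1 scale, as reads divided by a factor from TMM scaling over all 12 libraries (TMM-scaled reads). Pkm, the targeted gene, was counted with its isoforms Pkm1 and Pkm2 together, so its fall does not measure the loss of Pkm2 alone. It stood at 66618, 65101 and 70318 TMM-scaled reads in control rods and at 30486, 28578 and 28253 in Rodko rods. In retina it stood at 26619, 28897 and 26666 in control mice and at 16978, 17094 and 17531 in Rodko mice, so in neither tissue did a Rodko library reach a control library. The summed markers of rods stood in the rod libraries at 412% of their retina level in control mice and 403% in Rodko mice. Summed markers of 8 other cell types stood at 9.28% to 32.2% and those of cones at 62.8% and 63.7%, and no marker of the 10 lists was at 0 throughout a group. In whole tissue, fewer cells of a type and less RNA per cell cannot be told apart.

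The members differed widely in level. Per kilobase of exon, Fos had the highest mean in control rods, at 211 ± 38.2 TMM-scaled reads per kb (SD, n = 3). No control rod library of Nr4a1, the next in order, reached the Fos range of 185 to 255, but the highest of Egr1 (219) did. Nr4a1 (153 ± 32.7), Jun (150.0 ± 8.78), Egr1 (148 ± 71.9) and Junb (86.5 ± 42.0) followed, and each overlapped the next in its range of libraries. Fosb stood well below them at 13.8 ± 6.29. The lowest were Fosl2 (3.07 ± 0.511), Npas4 (2.98 ± 1.81), Arc (1.49 ± 0.383) and Egr3 (0.957 ± 0.543), whose ranges overlapped from each one to the next.

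In Rodko rods Fos was again first, at 232 ± 49.1 per kb, and its range again overlapped that of Egr1 (159 ± 48.3). In control retina the order began with Fos (142 ± 7.64), Nr4a1 (126 ± 5.90) and Egr1 (122 ± 41.8). In Rodko retina Egr1 had the highest mean (148 ± 79.0), within the spread of Fos (144 ± 30.4) and Nr4a1 (140.4 ± 12.8). Junb ranked below Fos, Nr4a1, Egr1 and Jun in all 4 groups, and the 5 genes below it were separated from it in every group. Those 5 lay closer to each other in retina, where the lowest in control mice was Egr3 at 5.80 ± 1.54 per kb, than in rods.

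**Figure D1:**
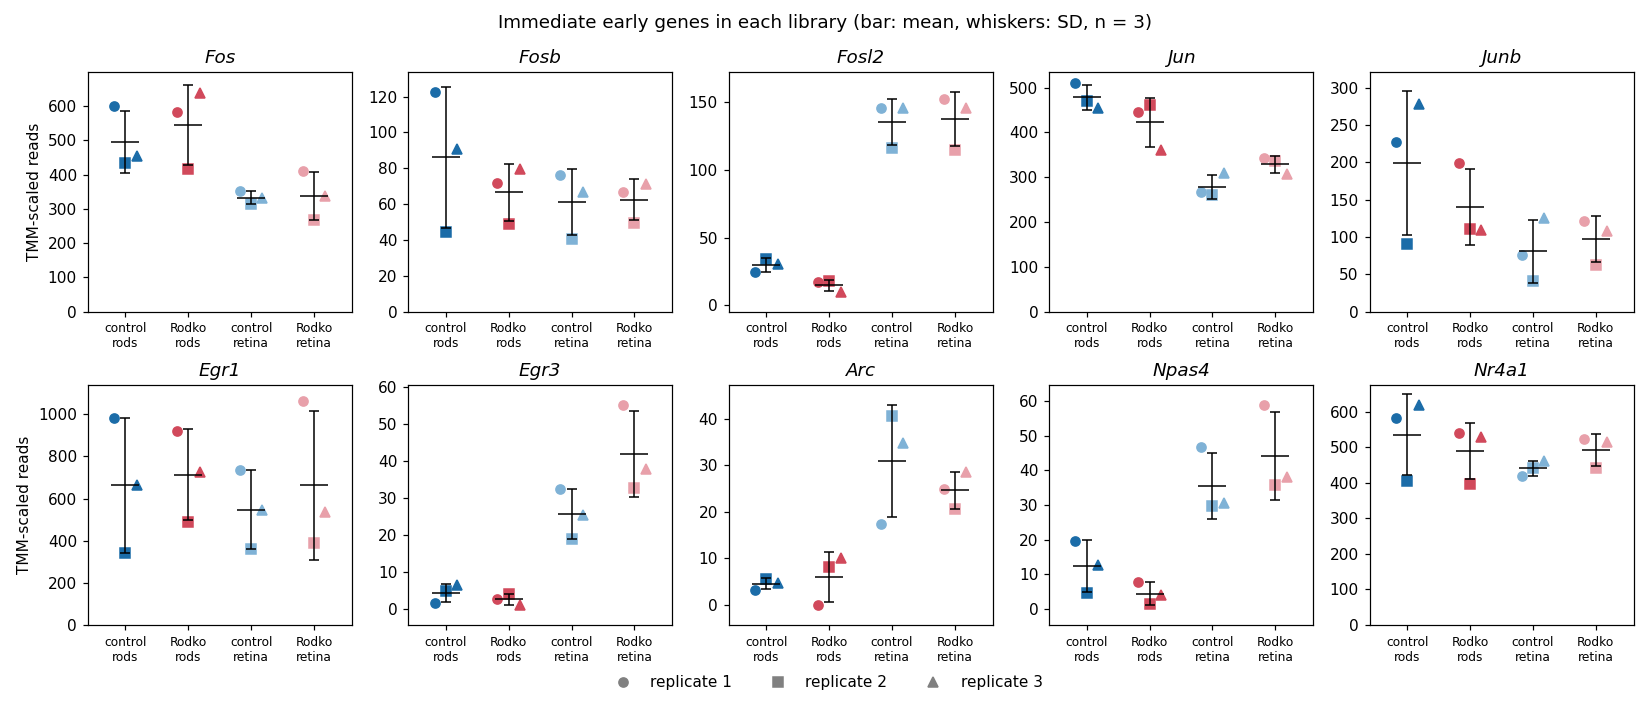
Level of each of the 10 genes in every library, as TMM-scaled reads on a linear axis; symbols give the replicate number, bars the mean and whiskers the SD of 3 libraries. Fosl2, Egr3, Arc and Npas4 lay lower in every rod library than in any retina library, and replicate 2 was the lowest of its group in all 4 groups for Fos, Fosb, Egr1 and Npas4.

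Rods were first compared with retina, which asks how much of each early mRNA was on rod ribosomes beside its level in the whole tissue. In control mice 4 of the 10 genes were lower in rods than in retina, which were Fosl2, Egr3, Arc and Npas4, where 35.5% of all 25584 genes tested were lower. Fos, Jun and Junb were higher in rods on the TMM scale, where 23.5% of all genes were higher, but none of them passed the threshold when libraries were scaled by total reads or left as deposited, and Fos turned to -0.035 in the deposited values. In Rodko mice the same 4 were lower (background 35.1%), and Fos and Jun were higher (background 23.9%). Rod and retina libraries did not overlap for the 4 lower genes in either genotype (36.6% of all genes in control and 36.7% in Rodko mice were lower without overlap), nor for Fos and Jun, which were higher without overlap on the TMM scale (25.2% and 26.3% of all genes). All calls are from limma with Benjamini-Hochberg adjustment over all genes at 0.05, and log2 ratios are on the scale of log2(TMM-scaled reads + 1), which understates the change of low genes.

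Fosl2, an AP-1 partner with slower kinetics than Fos, stood at 24.6, 34.4 and 30.2 TMM-scaled reads in control rods and at 145, 116 and 146 in control retina. In Rodko mice it stood at 16.9, 17.7 and 10.1 in rods and at 152, 115 and 146 in retina. Every rod library lay below every retina library in both genotypes. The log2 ratio was -2.16 ± 0.25 (SE; 4.47-fold lower in rods, limma adjusted p = 2.34e-06) in control mice and -3.15 ± 0.25 (8.90-fold lower, limma adjusted p = 2.78e-08) in Rodko mice.

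Egr3, whose product shares its DNA motif with EGR1, rested on 1 to 5 reads per rod library. It stood at 1.64, 4.65 and 6.36 TMM-scaled reads in control rods against 32.4, 18.9 and 25.4 in control retina, a log2 ratio of -2.44 ± 0.49 (limma adjusted p = 0.000505). In Rodko mice the values were 2.60, 4.07 and 1.01 in rods against 55.2, 32.7 and 37.9 in retina, a log2 ratio of -3.66 ± 0.49 (limma adjusted p = 9.42e-06). The rod and retina libraries did not overlap in either genotype.

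Arc, which shapes glutamate receptor traffic at synapses, was likewise at the edge of detection in rods, with 0 to 10 reads per rod library. Control rods held 3.27, 5.58 and 4.77 TMM-scaled reads and control retina 17.5, 40.5 and 34.8. In Rodko mice, replicate 1 of the rods held no Arc read, which allows up to 3 reads by counting error alone, and the others stood at 8.15 and 10.1, beside 24.9, 20.5 and 28.4 in retina. The log2 ratios were -2.47 ± 0.70 in control mice (limma adjusted p = 0.00690) and -2.45 ± 0.70 in Rodko mice (limma adjusted p = 0.00711), and with a pseudocount of 0.1 the first had an adjusted p of 0.0902.

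Npas4, which in neurons follows calcium entry, had 1 to 12 reads per rod library. It stood at 19.6, 4.65 and 12.7 TMM-scaled reads in control rods and at 46.6, 29.7 and 30.5 in control retina. In Rodko mice it stood at 7.81, 1.36 and 4.02 in rods and at 58.8, 35.7 and 37.9 in retina. No rod library reached a retina library. The log2 ratio was -1.61 ± 0.53 in control mice (limma adjusted p = 0.0159), which was lost without control rod replicate 2 (0.0799) or control retina replicate 1 (0.0694), and -3.23 ± 0.53 in Rodko mice (limma adjusted p = 7.30e-05). A block on replicate number, which paired rods and retina within a genotype, gave limma adjusted p-values of 0.00375 and 4.28e-06, respectively.

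Fos, the founding member of the AP-1 family, stood at 599, 434 and 455 TMM-scaled reads in control rods and at 352, 316 and 332 in control retina. In Rodko mice it stood at 582, 416 and 638 in rods and at 409.8, 267 and 336 in retina. Each rod library was above each retina library of its genotype. The log2 ratio was 0.56 ± 0.17 in control mice (1.47-fold, limma adjusted p = 0.0117), which was lost without control rod replicate 1 (0.0683), and 0.69 ± 0.17 in Rodko mice (1.61-fold, limma adjusted p = 0.00300). With the replicate number as a block, the limma adjusted p was 0.000216 in control mice and 2.44e-05 in Rodko mice.

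Jun, the common AP-1 partner, varied least among the 10 in control rods, where it stood at 509, 471 and 455 beside 266, 260.0 and 309 in control retina. In Rodko mice it stood at 445, 462 and 360.2 in rods and at 343, 336 and 307 in retina. The rod libraries were again all above those of retina. The log2 ratio was 0.78 ± 0.12 in control mice (limma adjusted p = 2.72e-05) and 0.35 ± 0.12 in Rodko mice (limma adjusted p = 0.0153), where it turned to -0.23 with scaling by total reads and to -0.25 in the deposited values. The Rodko call was also lost without Rodko rod replicate 1 (0.0531), Rodko rod replicate 2 (0.0769) or Rodko retina replicate 3 (0.0609). On the TMM scale with the replicate block, its limma adjusted p was 0.00790.

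Junb, an AP-1 partner that can restrain JUN, stood at 228, 91.2 and 278 in control rods and at 75.6, 41.4 and 125 in control retina, so the groups overlapped. In Rodko mice it stood at 199, 111 and 109.7 in rods and at 121, 63.1 and 108 in retina. The log2 ratio was 1.28 ± 0.42 in control mice (limma adjusted p = 0.0163) and 0.51 ± 0.42 in Rodko mice (limma adjusted p = 0.312). With the replicate number as a block, the limma adjusted p was 1.20e-05 in control mice and 0.0244 in Rodko mice. In the fit with no block, the control call was lost without control rod replicate 1 (0.0626), control rod replicate 3 (0.0837) or control retina replicate 2 (0.102). Prdx2 overlaps Junb on the opposite strand and held 1987 to 3211 reads per library, and since it is not stated whether counting used strand, the value of Junb is uncertain.

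Egr1, Fosb and Nr4a1 did not pass the threshold in either genotype. Egr1 stood at 984, 339.6 and 663 in control rods and at 735, 359.9 and 547 in control retina, and the log2 ratio was 0.20 ± 0.38 (95% CI -0.61 to 1.02). Fosb stood at 123, 44.7 and 90.6 in control rods and at 76.5, 40.5 and 66.7 in control retina, with a log2 ratio of 0.42 ± 0.34 (95% CI -0.31 to 1.14). For these genes the libraries of rods and retina overlapped. Their intervals, from the fit with no block, leave room for a difference in either direction. With the replicate number as a block, the SE was 0.12 for Egr1 and 0.21 for Fosb. Neither passed in that fit (limma adjusted p = 0.145 and 0.102). Nr4a1 stood at 583, 406 and 620.1 in control rods and at 419.8, 443 and 461 in control retina, a log2 ratio of 0.26 ± 0.15. Without control rod replicate 2, Fosb (limma adjusted p = 0.0298) and Nr4a1 (limma adjusted p = 0.00981) were called higher in rods. In Rodko mice the log2 ratios were 0.19 for Egr1, 0.08 for Fosb and -0.02 for Nr4a1. With libraries scaled by total reads Nr4a1 was called lower in Rodko rods (-0.60, limma adjusted p = 0.00194), as it was in the deposited values (-0.62, limma adjusted p = 0.00212).

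The direction of the smaller ratios depended on the scale. On the TMM scale the median of all genes stood at -0.37 in control mice and -0.32 in Rodko mice. With scaling by total reads that median was -0.76 and -0.74, and 12706 genes were lower and 2184 higher in control rods, against 9083 and 6001 on the TMM scale. In Rodko mice 12648 were lower and 2198 higher with total reads, against 8992 and 6108. Read against the median of all genes, the members fell into 2 sets under TMM scaling, total reads and the deposited values alike. Fos, Fosb, Jun, Junb, Egr1 and Nr4a1 lay above the median by 0.11 to 1.65 in both genotypes, and Fosl2, Egr3, Arc and Npas4 lay below it by values from -1.25 to -3.40.

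**Figure D2:**
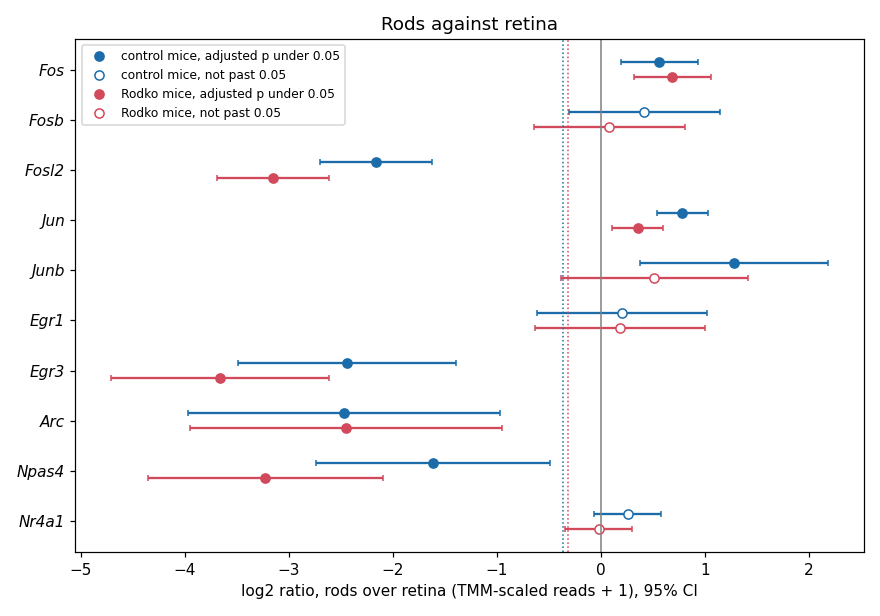
Log2 ratio of rods over retina for each gene with its 95% confidence interval, in control mice (blue) and Rodko mice (red); filled points passed an adjusted p of 0.05 and dotted lines give the median of all genes (-0.37 and -0.32). Fosl2, Egr3, Arc and Npas4 lay far to the left of both lines and the other 6 to the right, and for Fos, Fosb, Egr1 and Nr4a1 in control mice and Fosb, Jun, Junb and Egr1 in Rodko mice the sign against 0 turned under another scaling.

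Expressed as a share of the retina level on the TMM scale, the 4 lower genes stood in control rods at 21.9% (Fosl2), 16.5% (Egr3), 14.7% (Arc) and 34.7% (Npas4). In Rodko rods the shares were 10.8%, 6.11%, 24.6% and 9.96%. The summed markers of 8 other cell types in the same libraries ran from 11.4% (ganglion cells) to 31.2% (bipolar cells) in control mice. The part of RNA from other cells in the low rod values was not tested. The remaining 6 stood at 121% to 246% in control rods and at 99.3% to 161% in Rodko rods, above the marker lists of every cell type but rods. With total reads or the deposited values, Fosb, Egr1 and Nr4a1 had log2 ratios below 0 in both genotypes.

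**Figure D3:**
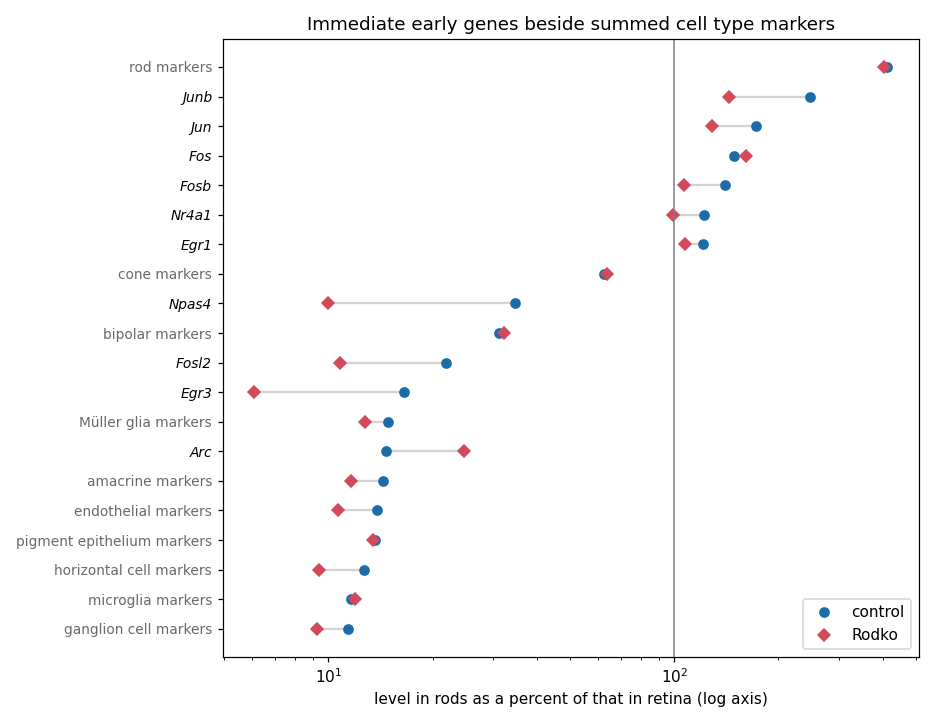
Level in rods as a percent of that in retina, both in TMM-scaled reads, on a log axis, for the 10 genes (black) and for the summed markers of 10 cell types (grey), in control (blue) and Rodko mice (red). Fosl2, Egr3, Arc and Npas4 sit between 6.11% and 34.7%, and the other 6 genes sit between 99.3% and 246%, below the rod markers at 412% and 403%.

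The genotypes were then compared within rods and within retina, which asks whether loss of both Pkm2 alleles from rods went with a change in early gene levels. The control mice, with Cre and 1 floxed allele, were heterozygous for Pkm2 by the methods, so intact rods were not part of the comparison. In rods 0 of the 10 genes passed the threshold (limma with Benjamini-Hochberg adjustment), where 0.0194% of 20658 genes passed. At an unadjusted p under 0.05 there was 1 gene, Fosl2, which was lower (3.41% of all genes were lower by this rule and 1.37% higher). edgeR also gave 0 calls and 1 gene unadjusted. In retina 0 of the 10 passed, where 0.00391% of 25590 genes passed, and at an unadjusted p under 0.05 there were 2 genes, Jun and Egr3, both higher (2.12% of all genes were higher by this rule and 2.06% lower). There edgeR gave 1 gene unadjusted with TMM and 2 with RLE scaling. Leaving out 1 library gave 0 to 3 genes unadjusted in rods and 0 to 2 in retina. DESeq2 gave 0 calls in both tissues, with an adjusted p for 5 of the 10 genes in rods. The smallest p of an exact permutation test of 3 libraries against 3 is 0.1.

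Fosl2 had deposited values of 19.2, 27.0 and 23.4 in control rods and of 13.2, 13.9 and 7.9 in Rodko rods. All 3 Rodko libraries lay below the control libraries, as for 5.4% of all genes in rods, and 4.49% lay above without overlap. The log2 ratio of Rodko over control was -0.96 ± 0.36 (95% CI -1.75 to -0.17), with an unadjusted p of 0.0210 and an adjusted p of 0.932 from limma. In retina its log2 ratio was 0.03 ± 0.16.

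Npas4 had deposited values of 15.4, 3.6 and 9.9 in control rods and of 6.1, 1.1 and 3.2 in Rodko rods, which overlapped. Its log2 ratio was -1.24 ± 0.62 (95% CI -2.58 to 0.10), with an adjusted p of 0.932 from limma. The remaining 8 genes had log2 ratios between -0.49 (Egr3) and 0.20 (Egr1) in rods, all with overlapping libraries. The sign for Arc depended on the tool, since it was -0.16 in limma and 0.43 in edgeR.

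The summed markers of all 9 cell types other than rods had a lower mean in Rodko rods than in control rods, without overlap of the libraries for 4 of them (Müller glia, amacrine, horizontal and endothelial cells) and with overlap for 5 (cones, bipolar and ganglion cells, pigment epithelium and microglia). Summed Müller glia markers ran from 11322 to 14313 TMM-scaled reads in control rods and from 9239 to 11000 in Rodko rods, and summed amacrine markers from 2395 to 3414 and from 2012 to 2380. In retina these 9 sums also had a lower mean in Rodko mice, such as 15829 against 17206 for cones and 77418 against 87170 for Müller glia. As a share of the retina level, the sums of bipolar cells, cones and microglia were not lower in Rodko rods, and the others were. Of the 74 marker genes tested in rods in the 9 lists, 0 passed the threshold in limma. At an unadjusted p under 0.05, 23 (31.1%) were lower in Rodko rods and 0 higher, beside 3.41% and 1.37% of all genes. Their part in the lower values of Fosl2 and Npas4 was not tested.

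In retina Jun had deposited values of 311.7, 308.0 and 365.4 in control mice and of 406.1, 399.7 and 370.5 in Rodko mice. The log2 ratio was 0.26 ± 0.11 (95% CI 0.02 to 0.49), with an unadjusted p of 0.0342 and an adjusted p of 0.947 from limma. Egr3 had values of 38.0, 22.4 and 30.0 in control retina and of 65.4, 38.9 and 45.7 in Rodko retina, a log2 ratio of 0.71 ± 0.29 (95% CI 0.08 to 1.34) with an unadjusted p of 0.0310. For both genes the Rodko libraries lay above the control libraries, as for 4.53% of all genes in retina, and 4.76% lay below without overlap. The other 8 had log2 ratios from -0.23 (Arc) to 0.37 (Junb), and their libraries overlapped.

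**Figure D4:**
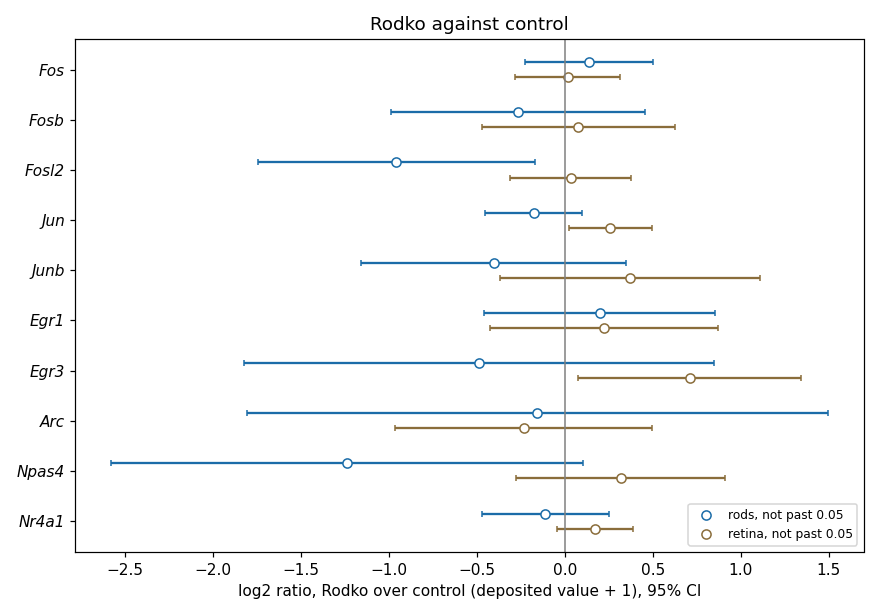
Log2 ratio of Rodko over control for each gene with its 95% confidence interval, in rods (blue) and retina (brown), on the scale of log2(deposited value + 1); open points did not pass an adjusted p of 0.05. No gene passed, and the interval lay clear of 0 for Fosl2 in rods and for Jun and Egr3 in retina.

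The difference between the genotype effects of rods and retina was tested itself. Of the 10 genes 0 passed, as did 0.0% of 25584 genes, and edgeR gave 0 as well. At an unadjusted p under 0.05 there were 3 genes, each with a lower effect in rods, as for 2.6% of all genes, and 1.81% had a higher effect in rods by this rule. These were Fosl2 (log2 difference -0.996 ± 0.36), Jun (-0.43 ± 0.16) and Npas4 (-1.61 ± 0.75), and each had an adjusted p of 0.978 from limma. The intervals were wide for the low genes, with a 95% CI of -2.10 to 2.14 for Arc.

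Libraries of the same group differed more for some early genes than the genotypes did. Replicate 2 was the lowest of the 3 libraries in all 4 groups for Fos, Fosb, Egr1 and Npas4, a pattern that was picked after the values had been seen. It was held by 2.52% of 13270 genes with a mean of at least 50 TMM-scaled reads in retina, a set that includes Fos, Fosb and Egr1 but not Npas4, whose mean was lower. For Egr1, replicate 2 stood at 339.6, 490.3, 359.9 and 390.1 TMM-scaled reads in control rods, Rodko rods, control retina and Rodko retina, and replicate 1 at 984, 923, 735 and 1064. The highest control rod library thus held 2.90 times the lowest, and that ratio was 1.12 for Jun.

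Junb and Nr4a1 had replicate 2 lowest in 3 of the 4 groups, Fosl2 and Egr3 in 2, and Jun and Arc in 1. The deviations from the group means of log2(TMM-scaled reads + 1) were compared over the 12 libraries for the 7 members with at least 50 TMM-scaled reads in retina. The correlation of each with the mean of the other 6 was 0.88 for Egr1, 0.85 for Junb, 0.81 for Fosb, 0.72 for Nr4a1 and 0.65 for Fos. It was 0.19 for Jun and -0.004 for Fosl2. The points share libraries, and the rods and retina of 1 number within a genotype also deviated together over all genes, so these correlations describe the libraries and carry no p.

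Replicate 2 had the most reads of its group in control rods and Rodko retina and the fewest in Rodko rods and control retina. Over the 12 libraries the deviations of log2 total reads correlated at -0.49 with the mean deviation of the 7 members. Of the summed markers of 10 cell types, those of microglia moved most closely with the members (0.78), followed by pigment epithelium (0.60) and cones (0.59), and those of horizontal cells moved most against them (-0.80). Replicate 2 had the lowest microglia sum in 3 of the 4 groups, at 57.7 TMM-scaled reads in control rods, 508 in control retina and 621 in Rodko retina, and in Rodko rods replicate 3 was lowest (66.4). Summed pigment epithelium markers stood at 4915, 1027 and 10327 TMM-scaled reads in replicates 1, 2 and 3 of control retina and at 5467, 6269 and 1899 in Rodko retina, so replicate 2 was the lowest in control mice and the highest in Rodko mice. In rods they stood at 658, 199 and 1358 in control mice and at 891, 672 and 272 in Rodko mice. The part of depth and of these cells in the levels of the early genes was not tested.

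**Figure D5:**
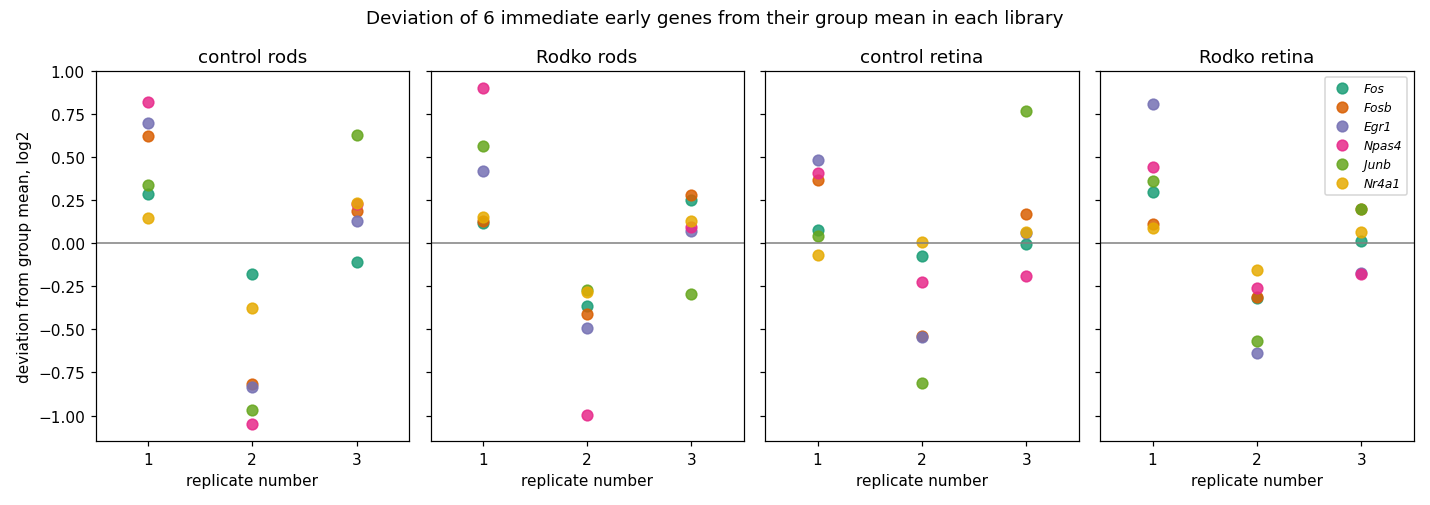
Deviation of Fos, Fosb, Egr1, Npas4, Junb and Nr4a1 from their group mean in each library, on the log2 scale, by group (panels) and replicate number. Replicate 2 lay below the group mean for all 6 in control rods, Rodko rods and Rodko retina, and in control retina for all but Nr4a1. The 6 are the genes with replicate 2 lowest in 3 or 4 groups, so the pattern follows from their choice. Of the genes not shown, Fosl2, Egr3 and Arc lay above the mean in replicate 2 of both rod groups, and Jun in that of Rodko rods. In retina, Fosl2 and Egr3 lay below the mean in replicate 2 of both genotypes.

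Further early genes were read from lists chosen for their roles. Of 18 other immediate early transcription factors, 10 (55.6%) were lower in control rods than in retina and 3 (16.7%) were higher, beside 35.5% and 23.5% of all genes, with a median log2 ratio of -1.27 beside -0.37 for all genes. The lowest were Klf4 (-2.91), Maff (-2.19), a partner of AP-1-like factors, and Csrnp1 (-2.06), and the highest were Atf3 (1.78), a stress-induced relative of CREB, Ier2 (1.02) and Nfil3 (0.60). Of 26 effectors and feedback genes, 12 (46.2%) were lower and 7 (26.9%) higher, beside the same 35.5% and 23.5%, with a median of -0.84. Rgs2 (-2.86), Vgf (-2.78) and Ccn2 (-2.73) were the lowest. Sgk1, a kinase induced by stress hormones, was highest (1.54), before Ier3 (1.30) and Gadd45b (1.19). These named genes all passed the threshold in limma.

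Of 25 upstream factors and kinases, 11 (44%) were lower and 7 (28%) higher in control rods, beside 35.5% and 23.5% of all genes, and the median was -0.11. Camk4 (-3.03), a calcium-dependent kinase that phosphorylates CREB, Rps6ka1 (-1.84) and Nab2 (-1.71), a repressor of EGR factors, were the lowest. Mef2c (1.45), Mef2d (1.07) and Map2k2 (0.66) were the highest, and the first 2 are factors that drive early genes in excitable cells. In the genotype comparisons 0 genes of these 3 lists passed the threshold in limma, either in rods or in retina. At an unadjusted p under 0.05, 4 of 66 tested were lower in rods (6.06%, beside 3.41% of all genes) and 0 higher (1.37% of all genes). In retina 2 of 69 were higher (2.90%, beside 2.12%) and 0 lower (2.06%). The 4 in rods were Bdnf, Dusp6, Gadd45b and Plk2, and those in retina were Mef2d and Sik1, named after their values had been seen.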

How the data were processed

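RNA-seq libraries of Rod-TRAP and retinal lysate were read from 1 deposited table. The values are a signal that the authors made by dividing the reads on each gene by a median-of-ratios size factor, set separately for rods and retina and rounded to 1 decimal. Of the positive deposited values, 100% were whole multiples of 1 read within 0.05, so reads were recovered. The submitters' processing notes name GRCm39, CASAVA 1.8.2, HISAT2, DESeq2 and edgeR. The counter, the annotation and the use of strand are not given in the sources used here.

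Genotypes were compared with limma 3.58.1 (R 4.3.3, variance trend) on log2(deposited value + 1), for genes with a mean of at least 1 in one genotype. The other comparisons used limma on TMM-scaled reads of all 12 libraries, with 4 group means. P-values are two-sided and adjusted by the Benjamini-Hochberg method over all genes. The fits were tested on simulated data. Changes were set there only in genes with a mean of at least 50 TMM-scaled reads, so that test does not cover genes as low as Egr3, Arc and Npas4. edgeR 4.0.16 (quasi-likelihood) and DESeq2 1.42.0 on recovered reads were alternatives, and in rods they called 4 and 7 genes in all against 4 with limma. Other filters, pseudocounts, scalings, a replicate block and leaving out each library were also tried. Exon lengths, overlapping genes and 3′ UTRs came from GENCODE vM21 and promoters from RefSeq, both on GRCm38.p6, and were matched by identifier or symbol. Figures were drawn with matplotlib 3.10.9.

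Replicate numbers paired rods and retina within a genotype, since all 6 same-numbered pairs deviated together over 15837 genes (correlations 0.146 to 0.358). They did not pair the genotypes. The members and lists were chosen with earlier results of these data known. Genes named are Pkm, the members, and the 3 highest and 3 lowest ratios of each list in rods against retina, the 5 genes most like the members, and list genes past the threshold between genotypes. Precision is set by 3 libraries per group and, for Egr3, Arc and Npas4 in rods, by few reads.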

Additional observations from a re-analysis of the deposited data

How the results depend on the processing

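Of the 10 genes, 0 passed between genotypes, and 0 in the difference between tissues, under every alternative run. In rods against retina, 7 genes had at least 10 reads in every library, of which 4 passed in control mice and 3 in Rodko mice, with 1 lower in each. Scaled by total reads or left as deposited, 4 genes were lower in control mice and 5 in Rodko mice, Nr4a1 being the added one, and 0 were higher in either, and edgeR with RLE scaling left 1 higher in Rodko mice. Leaving out 1 library gave 1 to 5 higher genes in control mice and 1 to 2 in Rodko mice. With the replicate number as a block, 7 genes passed in each genotype, Junb in Rodko mice being the added call (adjusted p = 0.0244), and no other call changed. In the genotype comparisons the numbers did not pair the samples, and 0 genes passed with the block.

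These log2 ratios turned in sign. With total reads and as deposited, in turn, control mice gave -0.13 and -0.17 for Fosb, -0.35 and -0.39 for Egr1, and -0.29 and -0.34 for Nr4a1, and as deposited -0.035 for Fos. Rodko mice gave -0.49 and -0.51 for Fosb, -0.23 and -0.25 for Jun, -0.065 and -0.084 for Junb, and -0.40 and -0.42 for Egr1. Between genotypes in rods, Arc was 0.43 in edgeR with TMM, 0.42 with RLE and 0.43 in DESeq2. Fos in retina was -0.000966 in 1 fit of all 12 libraries, and the difference between tissues for Arc was -0.91 with a pseudocount of 0.1.

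Leaving out 1 library at a time, the genotype ratio in rods ranged from -0.67 to 0.047 for Fosb, -0.22 to 0.55 for Egr1, -0.73 to 0.85 for Arc and -0.30 to 0.026 for Nr4a1. In retina it ranged from -0.13 to 0.18 for Fos, -0.19 to 0.25 for Fosb, -0.071 to 0.16 for Fosl2, -0.034 to 0.76 for Junb, -0.18 to 0.54 for Egr1 and -0.59 to 0.000312 for Arc. Rods against retina ranged from -0.15 to 0.62 for Egr1 in control mice, and in Rodko mice from -0.076 to 0.29 for Fosb, -0.13 to 0.59 for Egr1 and -0.10 to 0.12 for Nr4a1. The difference between tissues ranged from -0.030 to 0.31 for Fos, -0.43 to 0.39 for Egr1 and -0.60 to 1.13 for Arc. The causes of these changes were not tested. Some settings leave fewer genes or libraries. Precision was limited by 3 libraries per group and, for Egr3, Arc and Npas4, by at most 12 reads per rod library.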

Other observations

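The genes whose deviations from the group means were most like the mean of 7 members (Fos, Fosb, Fosl2, Jun, Junb, Egr1 and Nr4a1) over the 12 libraries were Gsc2 (r = 0.988), Eif4e3 (0.962), Glb1l3 (0.960), Gm47647 (0.958) and Hdc (0.957), out of 13263 other genes. Of these, Eif4e3 encodes a cap-binding protein and Hdc the enzyme that makes histamine. The 31 other immediate early genes at this level had a median correlation of 0.13, beside -0.01 for all genes, and ranged from -0.84 to 0.87. The highest was Sgk1 (0.871), at rank 99, and 0 of them were among the first 25 genes. These are descriptions over 12 libraries in 4 groups, in which rods and retina of 1 number within a genotype deviated together, and the correlations were ranked over many genes.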
